A study of Mus musculus with 3 samples.

Results

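The Hedgehog pathway genes described here were the 9 rows of the gene table, of 51826 in all, whose gene name was Shh, Ihh, Dhh, Ptch1, Smo, Hhip, Gli1, Gli2 or Gli3. They were chosen by name, and each name matched 1 row. All 9 passed the minimum of 20 counts in at least 1 library that defined the 18074 measured genes. The values come from whole spinal cord of C57BL/6 embryos at embryonic day 13.5, with 1 mRNA sequencing library for each of 3 genotypes. In the dE3 library, Nestin-Cre had deleted exon 3 of Ctnnb1, the β-catenin gene, an allele that the labels call a gain of function. In the cKO library, Nestin-Cre had deleted exons 2 to 6 of Ctnnb1, which the labels call a loss of function. The third library was wild type (WT), and the labels name no Cre or floxed allele for it. Nestin-Cre is used to act in neural progenitors and the cells they give rise to, and vessels, mesenchyme or cartilage in a dissected cord are not its usual targets. Whether a library holds 1 embryo or a pool is not stated. There were no replicates, so no test between genotypes could be run. Ratios carry a 95% interval that covers counting error only, and they compare libraries.

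Hedgehog proteins are secreted signals that bind the membrane protein Patched (Ptch1). Without a ligand, Ptch1 holds the membrane protein Smoothened (Smo) inactive, and Gli3 and in part Gli2 are processed into repressors of transcription. With ligand, Smo signals through the primary cilium, and Gli2 and Gli3 stay full length and can activate targets. Ptch1, Hhip and Gli1 are themselves target genes, so their RNA is widely read as a sign of pathway activity. In the embryonic spinal cord, Shh from the notochord and floor plate sets the order of ventral progenitors, and later supports oligodendrocyte precursors.

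The promoters of Ihh and Gli2, whose RNA was over 2-fold higher in dE3 than in WT, and of Ptch1, a target whose RNA differed less than that of Gli1, are printed because they stand for different responses among the members. Each line gives the 250 bases before the RefSeq start on GRCm38.p6, 5′ to 3′ on the gene's strand, which is the minus strand for all of them. They lie at chr1:74951673-74951922 for Ihh, chr1:119053620-119053869 for Gli2 and chr13:63565736-63565985 for Ptch1. Capitals mark the GC box GGGCGG or its reverse complement CCGCCC.
Ihh: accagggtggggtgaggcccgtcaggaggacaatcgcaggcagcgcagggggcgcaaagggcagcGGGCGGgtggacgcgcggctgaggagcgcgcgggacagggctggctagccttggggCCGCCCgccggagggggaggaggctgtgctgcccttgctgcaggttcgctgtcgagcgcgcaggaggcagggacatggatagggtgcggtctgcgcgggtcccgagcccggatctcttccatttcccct
Gli2: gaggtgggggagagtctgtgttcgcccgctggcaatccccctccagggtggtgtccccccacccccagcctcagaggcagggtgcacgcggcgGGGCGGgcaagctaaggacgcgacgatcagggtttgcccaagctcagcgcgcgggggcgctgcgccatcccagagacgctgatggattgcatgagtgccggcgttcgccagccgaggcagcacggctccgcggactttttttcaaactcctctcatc
Ptch1: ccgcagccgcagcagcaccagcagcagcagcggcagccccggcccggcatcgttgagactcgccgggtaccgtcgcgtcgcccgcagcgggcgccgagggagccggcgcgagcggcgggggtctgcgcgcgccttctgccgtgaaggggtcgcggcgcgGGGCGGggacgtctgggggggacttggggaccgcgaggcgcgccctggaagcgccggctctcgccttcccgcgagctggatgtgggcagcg

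The RefSeq table held promoters of 7 members, the others being Dhh, Smo, Hhip and Gli3. A GC box was found in 6 of the 7, all but Smo, against 32.7% of 32851 mouse promoter windows of this length. The printed Ptch1 promoter held 41 CpG pairs and had a GC content of 78.4%, while the median over all windows was 6 CpG pairs and 52.4%. All 7 windows lay above that median in GC content, from 59.6% (Dhh) to 78.4% (Ptch1). The GC box holds only G and C, and its share among windows of like GC content was not computed. The Gli-binding sequence GACCACCCA was in 0 of the 7 windows on either strand, against 0.225% of all windows. TCF/LEF factors, the partners of β-catenin on DNA, bind variants of another short word, and 3 of these were searched on both strands. CTTTGAT was in 3.21% of all windows. CTTTGAA was in 4.46% of them. CTTTGTT was in 5.03% of them. At least 1 of these 3 was in 12.0% of all windows and in 0 of the 7. A match is only a run of letters, and these windows do not cover enhancers.

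The targeted gene and the tissue were checked first. Ctnnb1 stood at 461 CPM (counts relative to the scaled library total) in dE3, 422 in cKO and 544 in WT, a count that includes exons outside the deletions. The neural markers Tubb3, Elavl3, Stmn2, Sox2, Nes, Hoxb8 and Hoxc8 summed to 4237 CPM in dE3, 4641 in cKO and 4665 in WT, and 0 of the 7 differed 2-fold between either mutant and WT. Markers of other tissues stood apart between the libraries. The 12 cartilage markers found in the table summed to 989 CPM in dE3, 469 in cKO and 176 in WT, and 14 skeletal muscle markers to 202, 53.0 and 15.7 CPM. The 11 markers of mesenchyme and meninges summed to 957 CPM in dE3, 1058 in cKO and 497 in WT. Col1a1 and Col1a2 made up most of that sum, and both were lower in dE3 than in cKO. Over the 11 markers the median log2 ratio of dE3 to cKO was 0.47. Total counts were 34790053 in dE3, 33048837 in cKO and 32167470 in WT. The cKO library carries a different lane-style tag in its name from the dE3 and WT libraries, and what that tag changes cannot be told apart from the cKO genotype.

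**Figure D1:**
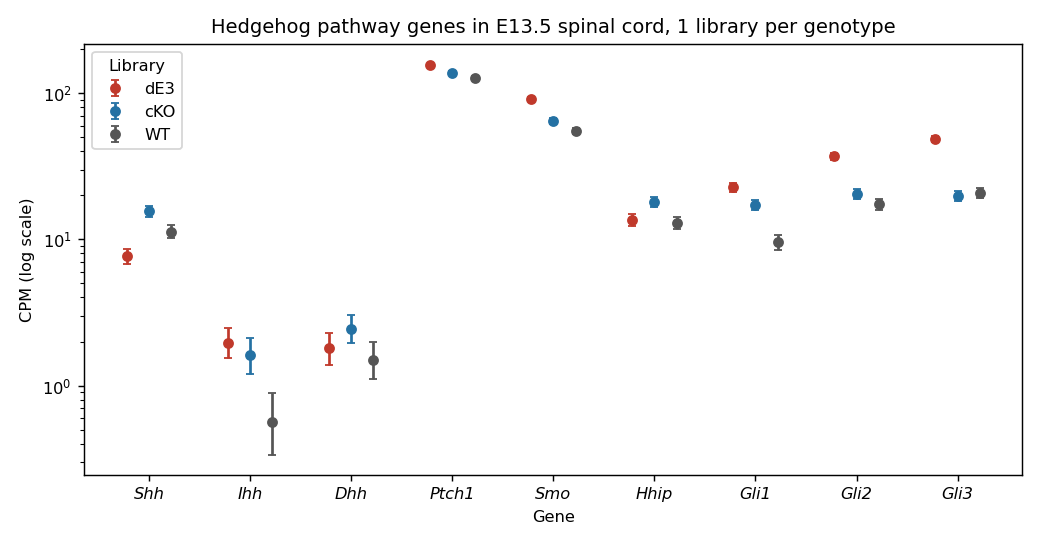
Scaled counts (CPM, log axis) of the 9 Hedgehog pathway genes in the dE3, cKO and WT libraries, 1 point per library, with bars for the exact 95% Poisson interval of the count. Ptch1 and Smo lie highest, Ihh and Dhh lowest, and dE3 is set apart from both other libraries for Gli2 and Gli3.

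In dE3 against WT, 4 of the 9 genes were higher by 2-fold or more with an interval excluding 1, 0 were lower and 5 were neither. Among all measured genes, 6.52% were higher by this rule and 3.78% lower. The genes higher were Ihh, a ligand, and all 3 Gli factors. The median log2 ratio of all 9 was 0.72, beside 0.00 over all measured genes. At any size, the interval lay above 1 for 6 of the 9 in dE3, against 29.1% of measured genes, and below 1 for 1 (Shh), against 28.8%. Between cKO and WT, 1 of the 9 was higher (Ihh), against 3.48% of measured genes, and 0 were lower, against 3.41%, with 6.89% called in either direction. The median of the 9 was 0.46, beside 0.00 over all measured genes. Smaller differences were frequent: the interval lay above 1 in cKO for 8 of the 9, all but Gli3, and for 27.2% of all measured genes. It lay below 1 for 0 of the 9 and for 26.7% of measured genes. Between dE3 and cKO, 1 gene was higher (Gli3), against 6.62% of measured genes, and 1 was lower (Shh), against 4.38%, with 11.0% called in either direction. The interval of that ratio lay above 1 for 5 of the 9, against 33.1% of measured genes, and below 1 for 2, against 31.0%. The comparisons with WT share that library, so they are not independent of each other. In whole tissue, fewer cells of a type and less RNA per cell cannot be told apart.

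**Figure D2:**
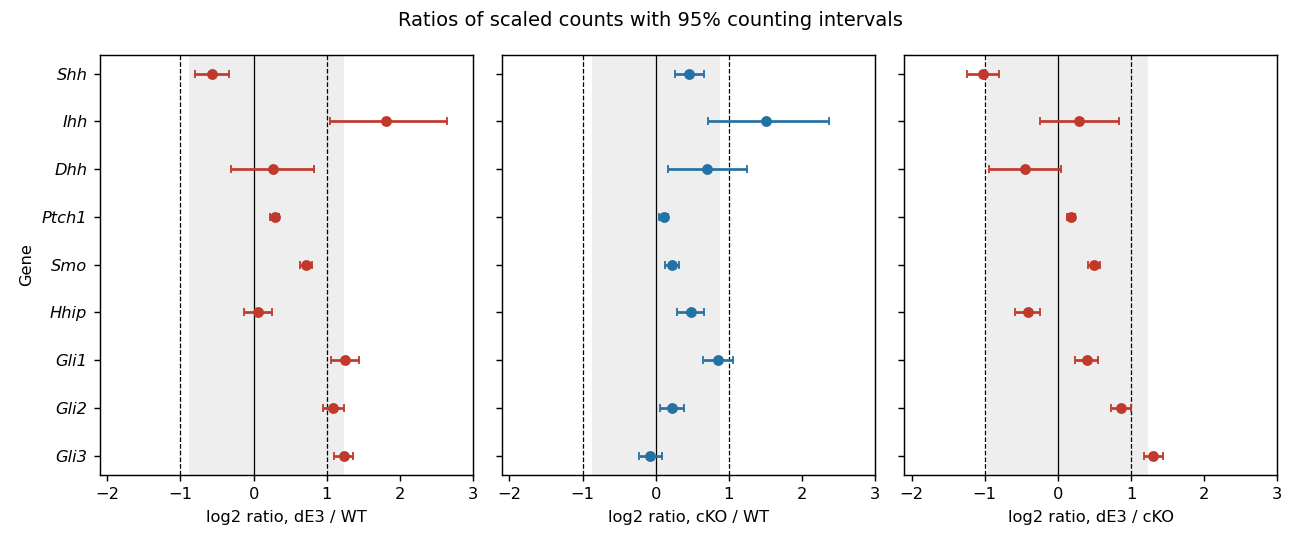
Log2 ratios of scaled counts for dE3 over WT, cKO over WT and dE3 over cKO, with 95% counting intervals. Dashed lines mark 2-fold and grey bands the 5th to 95th percentile of the 18074 measured genes. Ihh, Gli1 and Gli3 lie beyond the band in dE3 over WT, Ihh in cKO over WT, and Shh and Gli3 on opposite sides in dE3 over cKO.

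The 3 ligand genes did not move together. Shh (ENSMUSG00000002633, chromosome 5, 28456815 to 28467256, minus strand, GRCm38), the ligand of floor plate and notochord, had 268 counts in dE3, 513 in cKO and 361 in WT, or 7.65, 15.5 and 11.3 CPM. It was thus lowest in dE3 and highest in cKO. Relative to WT, the ratio was 0.677 (0.576 to 0.795) in dE3, and in cKO it was 1.38 (1.20 to 1.58), neither past 2-fold. The dE3 library held 2.03-fold less Shh than the cKO library (1.75 to 2.36). That difference is at the edge of the 2-fold rule, with a log2 ratio of -1.02 from counts and of -0.91 from the deposited TPM with 1 added.

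The genes of cells that make Shh were measured beside it. The 7 floor plate markers summed to 493 CPM in dE3, 818 in cKO and 830 in WT, with 2 of 7 lower in dE3 and 0 past 2-fold in cKO. Those lower were Spon1, an extracellular matrix gene (102 CPM in dE3, 276 in cKO and 257 in WT), and Ntn1, the netrin guidance cue (157, 375 and 356 CPM). Both are also made outside the floor plate. Foxa2, the transcription factor that defines the floor plate, had 109 counts in dE3, 140 in cKO and 116 in WT, and its ratio of dE3 to WT was 0.857 (0.653 to 1.12). Motor neurons also express Shh, and their 7 markers summed to 122 CPM in dE3, 213 in cKO and 171 in WT, in the same order of libraries as Shh. None of the 7 passed 2-fold between either mutant and WT. In dE3 against cKO, the comparison in which Shh was called, 2 of the 7 were lower. Isl2 was 2.26-fold lower (2.02 to 2.52), and Slc18a3 stood at 20.4 CPM in dE3 and 46.9 in cKO. The same 2 of 7 floor plate markers, Spon1 and Ntn1, were also lower there. The 8 markers of dorsal root ganglia, which lie beside the cord, summed to 701 CPM in dE3, 1067 in cKO and 885 in WT, and 4 of the 8 were lower in dE3 than in cKO. For the notochord, T (Brachyury) had 43 counts in dE3, 14 in cKO and 10 in WT, and Noto had 0 counts in all 3 libraries, which allows up to 3 counts in each. The part of these cells in the Shh values was not tested.

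Ihh and Dhh were scarce. Ihh (ENSMUSG00000006538, chromosome 1, 74945315 to 74951672, minus strand), the ligand of growing cartilage, had 69 counts in dE3, 53 in cKO and 18 in WT. Both mutant libraries lay above WT, at 1.97 CPM in dE3 and 1.60 in cKO against 0.563 in WT. Against WT this gave ratios of 3.49 (2.06 to 6.24) for dE3 and 2.85 (1.64 to 5.17) for cKO. Both calls rest on fewer than 100 counts and were not made under a minimum of 100. From the deposited TPM with 1 added, the log2 ratios were 0.98 in dE3 and 0.75 in cKO, below 2-fold. Cartilage markers moved in the same direction: all 10 measured were called higher in dE3 and 8 of 10 in cKO. Their collagen gene Col2a1 stood at 432 CPM in dE3, 234 in cKO and 88.7 in WT. The cKO excess above WT, divided by the dE3 excess, was 0.741 for Ihh and 0.361 for the cartilage sum. No interval was computed for these quotients, and that of Ihh rests on few counts. The Ihh ratio of dE3 to cKO was 1.23 (0.845 to 1.79). Of the cartilage markers Ucma was at 0 in WT, with 12 counts in dE3 and 5 in cKO. The part of cartilage in the Ihh values was not tested.

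Dhh (ENSMUSG00000023000, chromosome 15, 98893031 to 98898540, minus strand), the ligand of Schwann cells, had 63 counts in dE3, 81 in cKO and 48 in WT. Set against WT, the dE3 ratio was 1.20 (0.809 to 1.78) and the cKO ratio 1.63 (1.13 to 2.38). Dhh was thus highest in cKO, and its dE3 interval included 1. Schwann cell markers (8 genes) summed to 116 CPM in dE3, 148 in cKO and 95.6 in WT, and endothelial markers (7 genes) to 219, 282 and 195 CPM, both in the same order of libraries as Dhh. The part of these cells in the Dhh values was not tested. Dhh shares 22.2% of its 50-base words with an annotated gene on the opposite strand, and its exons overlap those of Rhebl1, so its counts are uncertain. Shh shares 23.6% with antisense genes, of which the 2 listed had at most 12 counts in any library.

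By the deposited TPM, which divides by transcript length and so allows levels of different genes to be compared, Shh supplied 62.5% of the summed ligand level in dE3, 76.2% in cKO and 82.0% in WT. Ihh supplied 19.9% of it in dE3, 9.41% in cKO and 4.94% in WT. The summed ligand level was 10.7 TPM in dE3, 17.7 in cKO and 11.9 in WT. The dE3 and WT sums were therefore close, with a different make-up.

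Ptch1 and Smo were the most abundant members by TPM, while Hhip ranked below Shh and the Gli factors. Ptch1 (ENSMUSG00000021466, chromosome 13, 63508328 to 63573598, minus strand), the ligand receptor and a target of the pathway, had 5430 counts in dE3, 4515 in cKO and 4051 in WT. In CPM these were 155, 137 and 127. Over WT, dE3 stood at a ratio of 1.22 (1.17 to 1.27) and cKO at 1.08 (1.03 to 1.13). Both intervals lie above 1 and far below 2-fold. Hhip (ENSMUSG00000064325, chromosome 8, 79965851 to 80058006, minus strand), a membrane protein that binds and sequesters ligand and is also a target, had 475 counts in dE3, 596 in cKO and 414 in WT. Its ratio to WT came to 1.05 (0.915 to 1.20) for dE3 and 1.39 (1.23 to 1.58) for cKO, so Hhip was highest in cKO. The dE3 interval leaves room for a difference of up to 1.20-fold.

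Smo (ENSMUSG00000001761, chromosome 6, 29735503 to 29761365, plus strand), the signal transducer that Ptch1 inhibits, had 3185 counts in dE3, 2129 in cKO and 1764 in WT. This gave 90.9 CPM in dE3, 64.5 in cKO and 55.2 in WT. Relative to WT, the ratio was 1.65 (1.55 to 1.75) in dE3, and in cKO it was 1.17 (1.10 to 1.24). Smo exceeded Ptch1 in its dE3 to WT ratio by 1.35-fold (1.25 to 1.45), a comparison of the 2 genes' counts that does not depend on library scaling. In TPM, Smo stood above Ptch1 in dE3 (60.6 against 48.8 TPM), while in WT it stood below (36.5 against 40.8 TPM). In cKO their levels of 42.7 TPM for Smo and 44.5 TPM for Ptch1 were not separated by their intervals.

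Gli1 (ENSMUSG00000025407, chromosome 10, 127329882 to 127341974, minus strand), an activator that is transcribed in response to Hedgehog signals, had 793 counts in dE3, 569 in cKO and 304 in WT. The CPM values were 22.6, 17.2 and 9.51, with both mutants above WT. Against WT this gave ratios of 2.38 (2.08 to 2.72) for dE3 and 1.81 (1.57 to 2.09) for cKO. The cKO value was short of 2-fold, with an upper bound past it. Between dE3 and cKO the ratio was 1.31 (1.18 to 1.47). Gli1 differed from the other 2 target genes among the members. Its dE3 to WT ratio was 1.95-fold (1.69 to 2.24) that of Ptch1 and 2.27-fold (1.88 to 2.75) that of Hhip. In cKO to WT the same comparisons gave 1.68-fold (1.45 to 1.95) and 1.30-fold (1.07 to 1.58).

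Gli2 (ENSMUSG00000048402, chromosome 1, 118834132 to 119053619, minus strand), the main activator in the neural tube, had 1297 counts in dE3, 673 in cKO and 556 in WT. Its CPM was 37.0 in dE3, 20.4 in cKO and 17.4 in WT. Set against WT, the dE3 ratio was 2.13 (1.92 to 2.35) and the cKO ratio 1.17 (1.05 to 1.31). The lower bound in dE3 falls just short of 2-fold. Gli3 (ENSMUSG00000021318, chromosome 13, 15463235 to 15730026, plus strand), the main repressor, had 1708 counts in dE3, 651 in cKO and 663 in WT. At 48.7 CPM in dE3 against 19.7 in cKO and 20.7 in WT, it set dE3 apart from both other libraries. Over WT, dE3 stood at a ratio of 2.35 (2.15 to 2.57) and cKO at 0.950 (0.851 to 1.06), and that of dE3 to cKO was 2.47 (2.26 to 2.71).

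The ratios of the Gli factors were closer together in dE3 than in cKO. Against WT, the dE3 ratio of Gli1 was 1.12-fold (0.945 to 1.32) that of Gli2 and 1.01-fold (0.861 to 1.19) that of Gli3, and both intervals include 1. In cKO the ratio of Gli1 was 1.55-fold (1.29 to 1.86) that of Gli2 and 1.91-fold (1.59 to 2.28) that of Gli3. The summed Gli level was 50.4 TPM in dE3, 27.2 in cKO and 20.5 in WT. Gli1 made up 34.7% of it in dE3, 43.9% in cKO and 34.5% in WT, and Gli3 made up 36.4%, 23.5% and 34.2%. Dividing the cKO excess above WT by the dE3 excess gave 0.588 for Gli1, 0.152 for Gli2 and -0.0370 for Gli3. The same quotient was 0.361 for the cartilage sum, 0.200 for the muscle sum, 0.0414 for the sclerotome sum, 0.0647 for the epidermis sum and 1.22 for the mesenchyme and meninges sum. Most of the sclerotome sum was 1 gene, Uncx, with 81.5 of 142 CPM in dE3, 48.8 of 69.5 in cKO and 56.8 of 66.3 in WT. Uncx was not called in either mutant and lay below WT in cKO, which lowers the quotient of that sum. Mesenchyme also expresses Gli genes and Ptch1, and 6 of its 11 markers were called higher in dE3 and 2 of 11 in cKO. Those 2 were Col1a1 (261 CPM in dE3, 353 in cKO and 139 in WT) and Col1a2 (339, 443 and 183 CPM). They made up most of the mesenchyme and meninges sum and raise its quotient. The median log2 ratio of dE3 to cKO over the 11 markers was 0.47. Of 13 measured muscle markers, 13 were called higher in dE3 and 10 in cKO, and of 7 sclerotome markers, 4 and 5. Of 5 measured epidermal markers, 5 were called higher in dE3 and 0 in cKO. The part of these tissues in the Gli values was not tested.

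**Figure D3:**
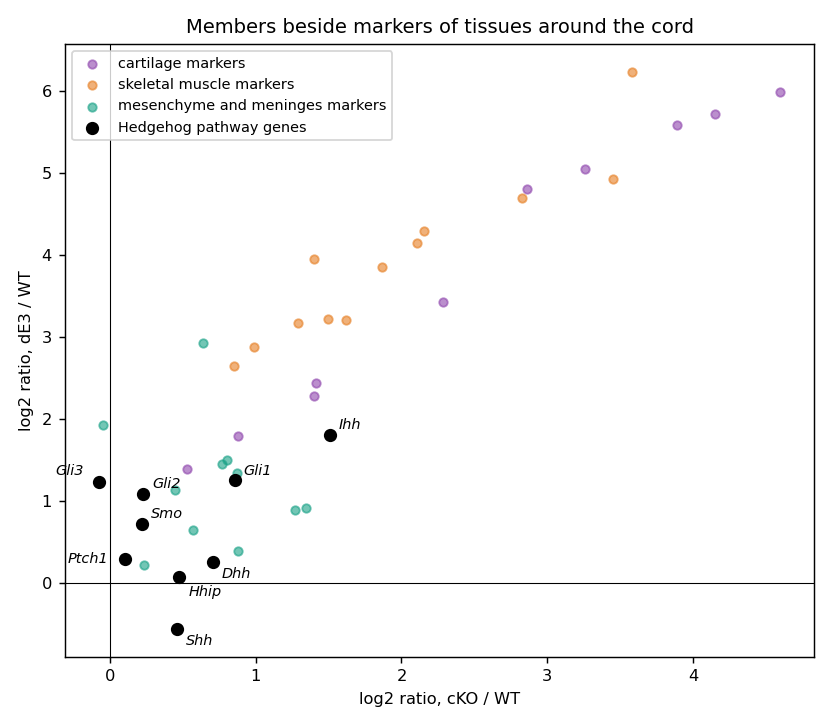
Log2 ratio of dE3 over WT (vertical) against cKO over WT (horizontal) for the 9 Hedgehog pathway genes (black) and the measured markers of cartilage, skeletal muscle and mesenchyme with meninges (1 point per gene). Both axes share the WT library. Ihh and Gli1 lie right of and above 0, while Gli3 lies at 1.23 on the vertical axis and -0.07 on the horizontal.

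The order of levels by TPM was alike in the upper and lower parts of the list. Ptch1 and Smo were the top 2 in every library. Ihh and Dhh were the lowest 2, and in dE3 (2.13 and 1.87 TPM) and cKO (1.66 and 2.54 TPM) their intervals overlapped. In WT, Ihh at 0.586 TPM lay below Dhh at 1.55 TPM. Shh ranked below all 3 Gli factors in dE3, at 6.67 TPM against 14.5 TPM for Gli2, the lowest of them. In cKO, at 13.5 TPM, and in WT, at 9.72 TPM, Shh ranked above the 3 Gli factors. Shh and Gli1 (11.9 TPM) had overlapping intervals in cKO, and Gli1, Gli3 and Gli2 in WT (7.08, 7.02 and 6.43 TPM) had overlapping ones between neighbours.

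Transcript estimates for Ptch1 differed between its annotated forms. Ptch1 has 10 transcripts in the tables, 9 with a count, and the most abundant of them have different annotated starts. Ptch1-206, annotated as subject to nonsense-mediated decay, had 1985 counts in dE3, 1340 in cKO and 1047 in WT. It took 36.6% of the Ptch1 counts in dE3, 29.7% in cKO and 25.8% in WT, and its ratio to WT came to 1.73 (1.60 to 1.86) for dE3 and 1.24 (1.14 to 1.34) for cKO. The coding form Ptch1-202 went the other way in dE3, with 1418 counts there, 1507 in cKO and 1423 in WT, a dE3 to WT ratio of 0.908 (0.843 to 0.979). Without Ptch1-206, the gene's ratio of dE3 to WT was 1.05 (0.995 to 1.10), and that of cKO to WT 1.02 (0.973 to 1.08). The coding form whose promoter is printed above, Ptch1-201, had a dE3 to WT ratio of 1.21 (1.12 to 1.31). These forms share exons, so the split between them is an estimate made upstream, and the counting interval does not cover its error.

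For the Gli genes and Smo, 1 coding transcript held most of the counts. Gli2-201 held 99.2% of the Gli2 counts in dE3, 98.1% in cKO and 100% in WT. Gli1-201 held 92.7%, 96.1% and 94.1% of its gene's counts, and its ratio to WT came to 2.34 for dE3 and 1.85 for cKO. Gli3-201 had 1556 counts in dE3, 623 in cKO and 630 in WT, a ratio of 2.25 (2.05 to 2.47) in dE3. Gli3-202, also annotated as coding, had 98 counts in dE3, 0 in cKO and 22 in WT. Smo-201 held 98.0% of the Smo counts in dE3, 97.4% in cKO and 96.4% in WT.

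**Figure D4:**
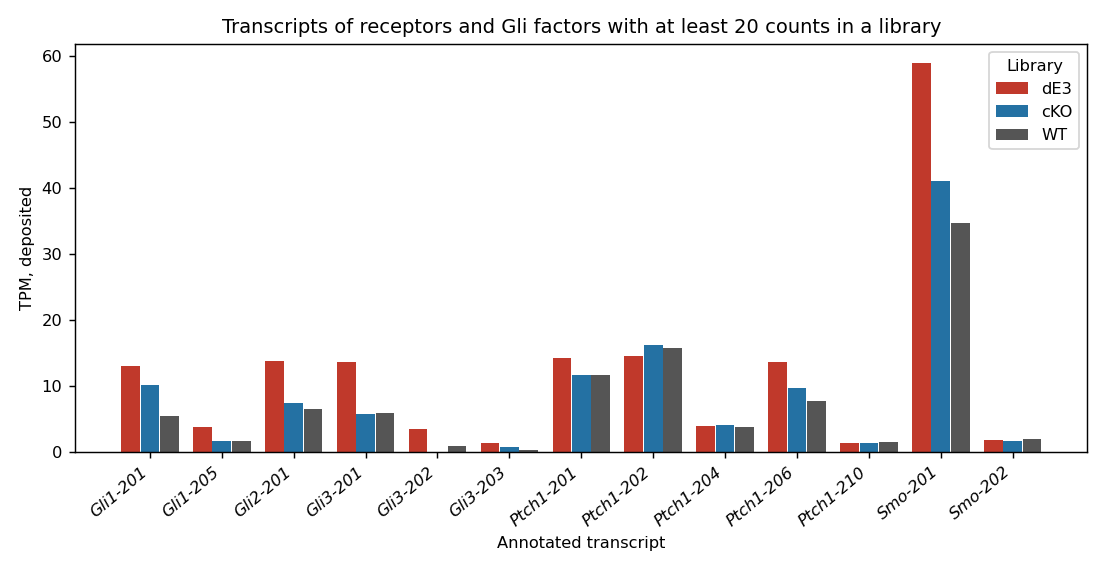
Deposited TPM of the annotated transcripts of Gli1, Gli2, Gli3, Ptch1 and Smo that reached 20 counts in at least 1 library, with 1 bar per library (dE3, cKO, WT). Smo-201 is the tallest in every library, and the bars of Ptch1-206 differ between libraries while those of Ptch1-202 do not follow them.

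Other genes of the pathway were taken from lists of 38 genes, all measured. In dE3 against WT, 4 of the 38 were higher, against 6.52% of measured genes, and 0 were lower, against 3.78%. Of all measured genes 10.3% were called in either direction there. The median log2 ratio of the 38 was 0.08. In cKO against WT, 1 was higher, against 3.48% of measured genes, and 0 were lower, against 3.41%, with a median of 0.01. Of the 20 transducers and inhibitors, 0 passed 2-fold in either mutant. Their medians were 0.00 in dE3 and -0.06 in cKO. Sufu, which restrains the Gli proteins, stood at 73.4 CPM in dE3, 53.1 in cKO and 53.9 in WT. Kif7, a ciliary kinesin that regulates Gli processing, had the largest ratio of the 20 in dE3, at 1.67 (1.45 to 1.92), and it is named after its value was seen. The abundant kinase genes Gsk3b and Csnk1a1, which phosphorylate Gli proteins, had dE3 to WT ratios of 0.971 (0.948 to 0.994) and 1.06 (1.04 to 1.09).

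Among 5 genes for ligand lipidation and release, 1 was called. Scube2, a secreted protein that helps release ligand from cells, had 2205 counts in dE3, 192 in cKO and 322 in WT. It was 6.24-fold higher in dE3 than in WT (5.55 to 7.04), while its cKO to WT ratio was 0.577 (0.480 to 0.692). Its relatives Scube1 and Scube3 had dE3 to WT ratios of 1.20 (1.14 to 1.28) and 1.04 (0.979 to 1.10). Disp1, the transporter that exports ligand, had 25.4 CPM in dE3, 26.3 in cKO and 24.2 in WT.

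The co-receptors Cdon, Boc and Gas1, which bind ligand at the cell surface, had dE3 values of 47.7, 39.5 and 47.6 CPM, cKO values of 39.0, 39.2 and 38.9 CPM and WT values of 49.9, 35.1 and 35.7 CPM. They spanned a narrow range, and 0 of them passed 2-fold.

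Of 8 further targets, 2 were higher in dE3 and 1 in cKO. Ccnd2, a D-type cyclin, was 4.31-fold higher in dE3 than in WT (4.12 to 4.52), at 289 CPM in dE3, 79.1 in cKO and 67.1 in WT. Foxl1, a forkhead factor of mesenchyme, had 39 counts in dE3, 57 in cKO and 15 in WT, with ratios to WT of 2.37 (1.28 to 4.63) in dE3 and 3.68 (2.05 to 6.99) in cKO. Its log2 ratios from the deposited TPM with 1 added were 0.52 and 0.86. Ccnd1, also a target of Wnt signals, was at 91.1 CPM in dE3, 53.7 in cKO and 51.4 in WT, a dE3 to WT ratio of 1.77 (1.67 to 1.88) that missed the 2-fold rule. The cyclins are regulated by many signals, and they are not specific to the pathway.

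Cord genes that depend on Shh were lower or did not pass 2-fold in dE3. Of 6 measured ventral genes that need Shh, 2 were lower in dE3 and 0 were higher, and 0 passed 2-fold in cKO. Those lower were Olig1, with 2 counts in dE3, 1200 in cKO and 1064 in WT, and Olig2, with 0, 452 and 532 counts, both factors of motor neuron and oligodendrocyte progenitors. With dE3 set to a floor of 3 counts, Olig2 was 194.5-fold lower in dE3 than in WT, and at least 157.6-fold lower by the counting bound. Nkx2-2, which marks the progenitors next to the floor plate, had a dE3 to WT ratio of 0.854 (0.737 to 0.990). Nkx6-1, a broad ventral factor, had a ratio of 0.677 (0.611 to 0.751). Nkx2-9 had 0 counts in dE3, 0 in cKO and 4 in WT, too few to measure.

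Genes that Shh restricts to dorsal or intermediate cord went both ways in dE3. Of 6, 3 were lower and 1 was higher, and 0 passed 2-fold in cKO. Pax3, a dorsal progenitor factor, was 3.16-fold higher (2.89 to 3.46), while Pax7, its close relative, was 3.88-fold lower (2.90 to 5.25). Dbx1 and Dbx2, which mark progenitors midway along the axis, had 9 and 8 counts in dE3, 147 and 163 in cKO, and 204 and 153 in WT. Pax6 and Irx3, broad factors of the middle cord, had dE3 to WT ratios of 0.956 (0.868 to 1.05) and 1.35 (1.23 to 1.49).

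**Figure D5:**
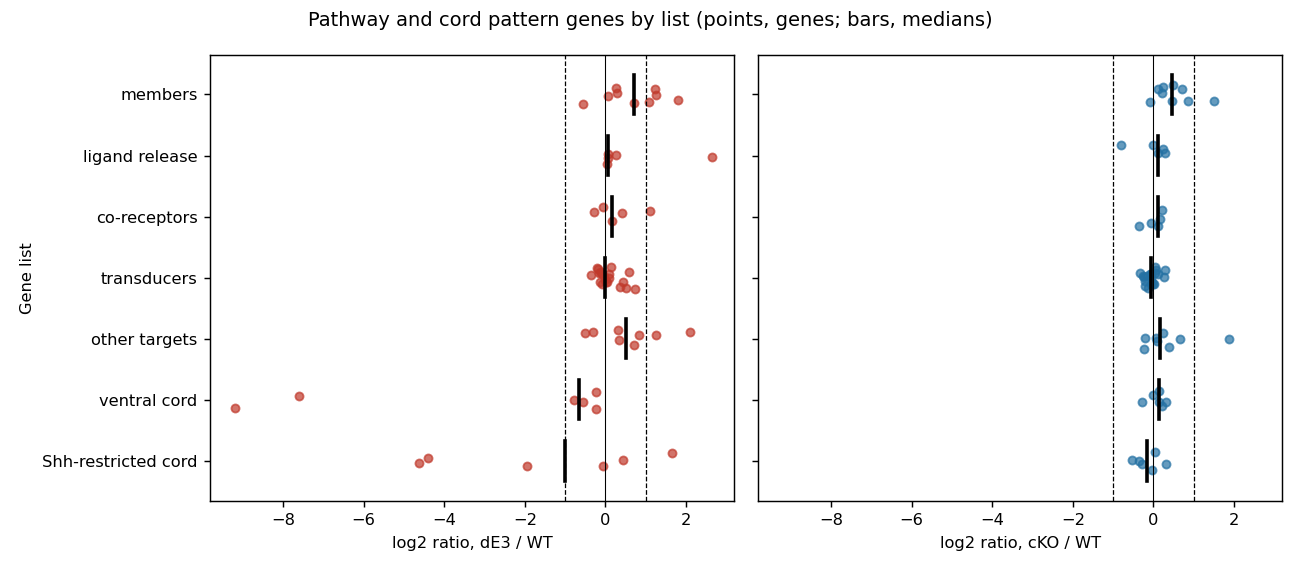
Log2 ratios of the measured genes of each list for dE3 over WT (left) and cKO over WT (right), 1 point per gene with small vertical jitter and a bar at the list's median. Dashed lines mark 2-fold. Olig2 is drawn at its ratio with dE3 set to the floor of 3 counts. Transducers cluster around 0 in both panels, and the lowest points on the left are Olig1 and Olig2.

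For the 3 target genes among the members, the genes with the nearest pair of ratios were sought among 11826 others with at least 100 counts in every library. The measure was the Euclidean distance between the log2 ratios of dE3 to WT and cKO to WT, so it rests on 3 libraries. Nearest to Gli1 were Krr1 (distance 0.0284), Lamb1 (0.0299) and Tubb6 (0.0447), and 9 genes lay within 0.1. Nearest to Ptch1 were Slc35b2, Tkfc and Kctd11, all within 0.0069, and 367 genes lay within 0.1. Nearest to Hhip were Gapdh, Glrx5 and Pla2g15, and 103 genes lay within 0.1. The pattern of Gli1 was thus the least common of the 3 by this count. Gli1 also lay farthest of the 3 from log2 ratios of 0.00, the medians over all measured genes, and genes are fewer there. These distances do not allow for counting error.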

How the data were processed

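RNA from 3 spinal cord libraries was compared, 1 per genotype (dE3, cKO, WT). Per the labels' protocols, Trizol was used for RNA and the VAHTS mRNA-seq V2 kit for the libraries. CASAVA, Bowtie2 2.3.2 and GRCm38.p6 are named, with no roles, per the submitters' processing notes. Which tool and annotation made the counts, and whether strand was used, is not given in the sources used here. Antisense partners therefore cannot be told apart. Per the file headers, the authors deposited estimated counts (whole numbers), TPM and FPKM per gene and transcript. The deposited FPKM values were not used. TPM served to compare levels between genes and as an alternative.

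Counts were scaled to library totals times TMM factors (edgeR 4.0.16 in R 4.3.3) of 1.01 (dE3), 0.999 (cKO) and 0.993 (WT). Genes with at least 20 counts in a library were measured. A ratio was called at 2-fold or more with its exact conditional binomial (Clopper-Pearson) 95% interval excluding 1. Level intervals are exact Poisson ones. A count of 0 was set to a floor of 3 counts in that library. Reads are not independent molecules, and neither intervals nor floors hold more than counting error. The ratio of 2 genes' ratios is a conditional odds ratio with its exact interval (scipy 1.17.1). Coordinates are those of the deposited tables, on GRCm38. Promoters come from RefSeq, transcript names and 50-base word sharing from GENCODE vM21.

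Members, lists and tests were chosen with earlier results of these data known. Named were all members, list genes called in a mutant against WT, the most abundant of each list, markers at 0 and the 3 nearest patterns. Other list genes given as examples were chosen after their values were seen. Some list genes that this rule takes in are not reported here, though list counts include them. Alternatives were DESeq2 1.42.0 size factors, totals alone, totals without mitochondrial genes, TPM with 0.1 or 1 added, other count minimums, a 1.5-fold rule and leaving out a transcript.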

Additional observations from a re-analysis of the deposited data

How the results depend on the processing

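Counts of called genes held under DESeq2 size factors, totals alone and totals without mitochondrial genes, with 4 members in dE3 against WT, 1 in cKO against WT and 2 in dE3 against cKO each time. From TPM with 1 added, which lowers the ratio of scarce genes by construction, the members called in cKO against WT became 0 and those in dE3 against cKO 1. Other pathway genes called became 2 in dE3 against WT and 0 in cKO against WT, and all measured genes 906, 403 and 961 in the 3 comparisons, against 1861, 1246 and 1988. With a minimum of 100 counts, which leaves fewer genes, 0 members and 0 other pathway genes were called in cKO against WT, and 882, 401 and 912 of all genes. Without a minimum, 2048 genes were called in cKO against WT. A 1.5-fold rule called 3 members in cKO against WT, other pathway genes 8, 2 and 6, and all genes 3499, 2508 and 3981. Of 156 recomputed log2 ratios of members, 129 stayed inside the counting interval, 27 left it and 0 called ones changed sign. Of the 27, 20 came from leaving out a transcript, which for members other than Ptch1 removed the main one and left few counts, and 7 from TPM. No paired analysis was possible because each genotype has 1 library. Depth limits Ihh and Dhh most, with fewer than 100 counts in every library.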
